A study of Mus musculus with 3 samples.

Results

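Polycomb repressive complex PRC2 trimethylates lysine 27 of histone H3, and the resulting mark, H3K27me3, is found mostly over CpG-rich promoters of repressed genes and over broader silent domains. In kidney, developmental transcription factors are classical carriers of the mark, while the genes of differentiated tubule and glomerular cells are mostly free of it in the cells that use them. Peaks away from the ends of genes can lie at internal promoters, at noncoding genes or in gene bodies, and these are the peaks described here.

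The set held 1079 peaks of the ADA-treated library, 6.13% of its 17612 deposited peaks. Members were chosen by position and by measured values of both libraries. A peak entered when it lay on chromosomes 1 to 19, had a fragment pileup below 40, was overlapped by at least 1 bp of an untreated peak, and lay more than 2 kb from both ends of every protein-coding gene in the RefSeq table of GRCm38.p6. Of these peaks, 828 lay inside a protein-coding gene and 251 outside genes (23.3%, exact 95% interval 20.8 to 25.9%). Intervals for shares are exact (Clopper-Pearson) and cover counting error only.

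H3K27me3 was profiled by ChIP-seq with an antibody from Cell Signaling Technology in whole kidney of C57BL/6 mice, with 1 library for ADA treatment, 1 for untreated mice and 1 untreated input. ADA is spelled as in the labels. Its dose, the age of the mice and the number of mice behind each library are not given in the sources used. The title also names pod-SAHH-/- mice, which were not analysed here. ChIP fragments numbered 20602041 after ADA treatment and 18849785 without it, and with 1 library per group no difference has a replicate check and no test was possible. In bulk tissue, fewer cells with the mark and less of the mark per cell cannot be told apart.

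The label of the set held for annotated gene boundaries but only partly for transcription start sites. A start site from the RefSeq promoter table lay inside 286 of the 1079 peaks (26.5%, interval 23.9 to 29.2%), and within 2 kb of 365 (33.8%). The start sites under the peaks were mostly rich in CG dinucleotides, which are the substrate of DNA methylation and form CpG islands. The following 300-base sequences show this for named genes. Each runs 5′ to 3′ on the gene's strand, from 250 bases before the start to 50 bases from it on (RefSeq, GRCm38.p6), with every CG in capitals; CG reads the same on both strands. Hdac7 encodes a class IIa histone deacetylase, Slc4a4 the basolateral bicarbonate transporter of the proximal tubule, and Cdyl a chromodomain protein. For each, the start under the peak is printed first, then another start of the same gene that no peak of either library covered. That other start lies downstream in Hdac7 and Slc4a4 and upstream in Cdyl. Larp1, an RNA-binding regulator of translation, had the strongest peak over a start site, and Mir9-3hg, a host transcript of miR-9, lies outside protein-coding genes. Its printed start lies downstream of the Mir9-3 hairpin (chr7:79505264-79505353), so a transcript from it would not hold that hairpin. Another listed start of Mir9-3hg, at chr7:79500026 with 35 CG, lies upstream of the hairpin. An ADA-treated peak covered that start, but no member and no untreated peak did.
Larp1, chr11:58008814-58009113, plus strand, under the peak, 61 CG: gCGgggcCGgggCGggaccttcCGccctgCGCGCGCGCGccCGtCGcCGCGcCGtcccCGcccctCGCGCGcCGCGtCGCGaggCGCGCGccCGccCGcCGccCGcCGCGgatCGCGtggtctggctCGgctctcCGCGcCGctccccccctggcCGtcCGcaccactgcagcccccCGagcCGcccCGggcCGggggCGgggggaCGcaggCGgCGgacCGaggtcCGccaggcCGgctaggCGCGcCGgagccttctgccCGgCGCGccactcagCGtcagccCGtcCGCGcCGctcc
Hdac7, chr15:97831446-97831745, minus strand, under the peak, 31 CG: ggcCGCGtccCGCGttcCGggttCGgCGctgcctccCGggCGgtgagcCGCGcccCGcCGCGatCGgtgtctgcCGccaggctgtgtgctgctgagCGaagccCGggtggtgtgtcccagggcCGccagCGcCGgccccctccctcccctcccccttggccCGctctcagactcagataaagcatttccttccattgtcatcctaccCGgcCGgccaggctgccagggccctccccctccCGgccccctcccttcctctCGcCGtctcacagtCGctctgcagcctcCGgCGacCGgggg
Hdac7, chr15:97814814-97815113, minus strand, under no peak, 5 CG: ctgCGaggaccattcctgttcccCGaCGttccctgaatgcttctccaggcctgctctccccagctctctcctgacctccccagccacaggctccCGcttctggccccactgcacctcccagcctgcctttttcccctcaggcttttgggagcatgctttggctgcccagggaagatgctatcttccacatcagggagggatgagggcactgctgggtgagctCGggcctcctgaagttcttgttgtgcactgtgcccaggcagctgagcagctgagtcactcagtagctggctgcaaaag
Slc4a4, chr5:88887010-88887309, plus strand, under the peak, 50 CG: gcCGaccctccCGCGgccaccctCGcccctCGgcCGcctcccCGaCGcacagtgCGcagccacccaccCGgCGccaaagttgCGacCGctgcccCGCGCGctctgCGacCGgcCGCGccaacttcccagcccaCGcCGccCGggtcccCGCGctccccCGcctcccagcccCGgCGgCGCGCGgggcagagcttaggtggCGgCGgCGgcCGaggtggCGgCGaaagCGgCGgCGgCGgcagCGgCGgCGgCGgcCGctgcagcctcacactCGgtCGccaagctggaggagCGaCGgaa
Slc4a4, chr5:89027716-89028015, plus strand, under no peak, 3 CG: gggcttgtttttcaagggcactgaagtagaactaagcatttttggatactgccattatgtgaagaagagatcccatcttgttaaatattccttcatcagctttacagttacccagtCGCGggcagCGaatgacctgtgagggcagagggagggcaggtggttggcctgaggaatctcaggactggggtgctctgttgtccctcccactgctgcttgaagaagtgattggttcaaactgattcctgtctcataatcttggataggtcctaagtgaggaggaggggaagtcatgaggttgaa
Cdyl, chr13:35741152-35741451, plus strand, under the peak, 34 CG: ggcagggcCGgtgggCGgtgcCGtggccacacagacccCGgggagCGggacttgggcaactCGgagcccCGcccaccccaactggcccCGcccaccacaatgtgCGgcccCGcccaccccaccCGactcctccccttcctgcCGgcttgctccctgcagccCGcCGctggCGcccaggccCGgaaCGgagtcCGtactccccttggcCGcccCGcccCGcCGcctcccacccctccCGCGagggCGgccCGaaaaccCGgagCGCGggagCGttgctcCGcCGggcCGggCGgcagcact
Cdyl, chr13:35659612-35659911, plus strand, under no peak, 3 CG: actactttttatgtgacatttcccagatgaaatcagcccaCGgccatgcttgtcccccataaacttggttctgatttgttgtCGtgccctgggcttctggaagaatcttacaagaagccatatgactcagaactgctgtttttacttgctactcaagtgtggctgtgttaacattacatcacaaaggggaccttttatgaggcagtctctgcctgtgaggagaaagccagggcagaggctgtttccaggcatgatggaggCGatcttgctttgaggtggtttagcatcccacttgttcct
Mir9-3hg, chr7:79515185-79515484, plus strand, under the peak, 28 CG: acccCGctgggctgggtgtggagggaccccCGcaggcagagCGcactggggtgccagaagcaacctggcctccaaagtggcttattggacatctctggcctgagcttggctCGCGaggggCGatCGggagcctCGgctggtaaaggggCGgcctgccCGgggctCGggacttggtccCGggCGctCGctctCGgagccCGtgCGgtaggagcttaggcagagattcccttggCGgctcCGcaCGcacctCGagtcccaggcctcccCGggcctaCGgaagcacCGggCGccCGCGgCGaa
Over all 31396 autosomal start sites in the table, 27.04% of the 300-base windows held 20 or more CG. A count of CG describes these letters and says nothing on whether they were methylated.

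Of 919 autosomal hairpins in the RefSeq microRNA table, 32 lay within 2 kb of 24 of the peaks and 16 overlapped a peak. By the RefSeq gene table, used for the shares that follow, 26 of the 1079 peaks (2.41%, interval 1.58 to 3.51%) had an end of a microRNA gene within 2 kb, against 1.47% of all ADA-treated peaks. The mature sequences of the miR-17 cluster, which promotes cell growth and is needed for kidney development in the mouse, are shown because the peak upstream of it was among the strongest outside genes, and miR-9-5p, encoded elsewhere, because of a peak over Mir9-1. Capitals mark the seed, bases 2 to 8, which pairs with target messengers.
miR-17-5p, chr14:115043684-115043706: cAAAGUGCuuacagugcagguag
miR-20a-5p, chr14:115044183-115044205: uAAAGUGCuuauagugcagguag
miR-18a-5p, chr14:115043867-115043889: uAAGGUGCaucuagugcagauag
miR-19a-3p, chr14:115044048-115044070: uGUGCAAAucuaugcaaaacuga
miR-19b-3p, chr14:115044358-115044380: uGUGCAAAuccaugcaaaacuga
miR-92a-3p, chr14:115044476-115044496: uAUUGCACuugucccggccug
miR-9-5p, chr3:88215613-88215635: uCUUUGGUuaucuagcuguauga
All are on the plus strand of GRCm38.p6. miR-17-5p and miR-20a-5p share their seed, as do miR-19a-3p and miR-19b-3p, while miR-18a-5p, miR-92a-3p and miR-9-5p each have another.

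Sharing between the libraries was less frequent far from gene ends than near them. Of the ADA-treated peaks on chromosomes 1 to 19 with a pileup below 40, 27% of 17534 were overlapped by an untreated peak, and the share was 37.3% of 9806 within 2 kb of a gene end and 14% of 7728 farther away. Among the far peaks it was 15.8% of 5232 inside genes and 10.1% of 2496 outside. The overlap defines the set, so these shares are a description. The 1079 members met 1079 different untreated peaks, of which 11 each lay over 2 members, and 11 members met more than 1 untreated peak. The untreated peaks themselves were far from every gene end for 97.5% of the members.

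The members were longer than the far peaks of the ADA-treated list that had no untreated partner. Their median length was 1061 bp (quartiles 648 and 1648 bp, range 293 to 10209 bp), against 645 bp for the 6649 far peaks without partner and 1112 bp for the 3655 shared peaks near gene ends. Members inside genes had a median of 1121 bp and those outside 916 bp. A longer peak has more chance to be overlapped, so length is bound up with the rule. The untreated partner covered a median of 55.4% of a member and all of it in 121.

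Pileup is the authors' average number of fragments over a peak, and each list starts at 10. The members' median was 12.02 in the ADA-treated list (quartiles 10.9 and 14.02, highest 38.24) and 10.77 for their untreated partners (10.32 and 11.5, highest 52.19). Inside genes the medians were 12.2 and 10.8, and outside genes 11.6 and 10.8. Shared peaks near gene ends had medians of 13.98 and 11.05, and far ADA-treated peaks without partner had a median of 10.7. The members thus ranked in the middle of their lists, with a median percentile of 57.3 among the ADA-treated and 51.9 among the untreated peaks.

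The ADA-treated pileup was the higher of the pair in 828 of 1079 members (76.7%), against 86.3% of all 4734 shared peaks. The untreated pileup was higher in 244 (22.6%), against 13.5% of all shared peaks and 10.8% of those near gene ends. Outside genes the untreated value was higher in 79 of 251 members (31.5%, interval 25.8 to 37.6%), and inside genes in 165 of 828 (19.9%, 17.3 to 22.8%). An ADA-treated pileup at least 1.5 times the untreated one was seen in 102 members (9.45%), against 17.2% of all shared peaks. It was at least 2 times the untreated one in 11 (1.02%), near the 1.27% of all shared peaks. These 11 were inside genes, where most members lay. These values come from 2 libraries with separate peak boundaries. The ADA-treated library had 1.09 times the fragments of the untreated one, but the caller's fragment length was 293 bp against 321 bp. The caller's background was 3.2389 fragments in the ADA-treated and 3.2424 in the untreated library. The part of depth and fragment length in these values was not tested. Sonication and antibody recovery of each library cannot be told apart from the treatment.

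**Figure D1:**
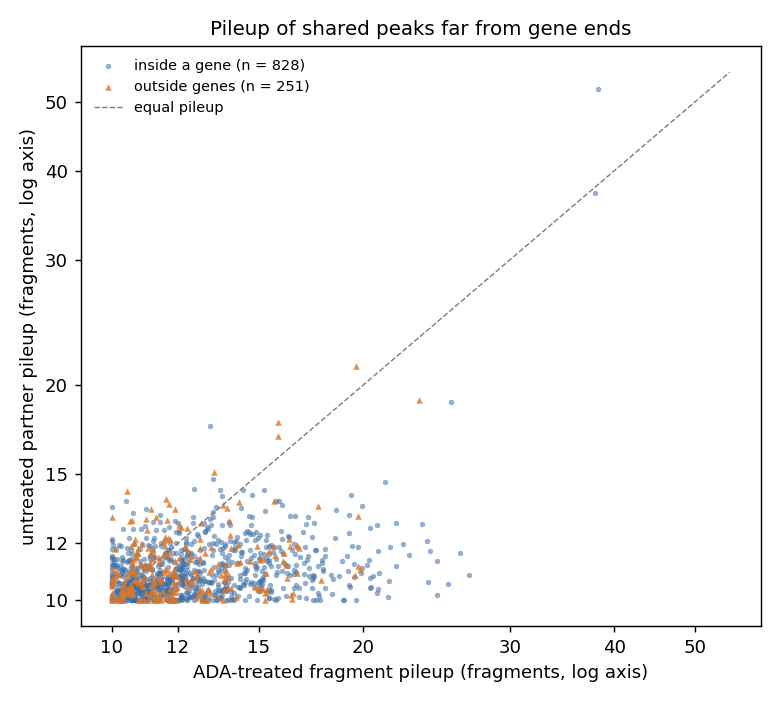
Fragment pileup of each shared peak far from gene ends in the ADA-treated library (x axis, fragments, log scale) and of its untreated partner (y axis, fragments, log scale), with circles for the 828 peaks inside genes, triangles for the 251 outside and a dashed line at equal pileup. Most points lie below the line, and the untreated values crowd between 10 and 12 while the ADA-treated values spread further; the pair at the upper right are the peaks in Sfi1.

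By the caller's own values, most of the untreated evidence was near its floor. The deposited q was at most 5% for 748 members in the ADA-treated list (69.3%, against 60.3% of all its peaks), and for 80 of the untreated partners (7.41%, against 6.21% of the untreated list).

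The limits of the rule cut through a sparse and a dense region. Only 7 shared far peaks reached a pileup of 40, and the nearest above it had 47.9 (beside Ly6c2), 55.4 (in Cdk8) and 78.4 (beside Lrrc4c). Just below were the peaks in Sfi1, with 38.24 and 37.98, and then Usp42, with 26.8. Around the distance limit, members in Fibcd1, Ldb1 and Rab37 lay 2001, 2002 and 2006 bp from a gene end, and peaks left out lay at 1993 bp, 1976 bp (Gpr162) and 1967 bp (Sppl2c). In all, 61 members lay between 2.0 and 2.5 kb from a gene end, and 87 shared peaks between 1.5 and 2.0 kb.

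Inside genes, a start site lay in 252 of the 828 peaks (30.4%, interval 27.3 to 33.7%), against 350 of the 4404 far gene-body peaks without untreated partner (7.95%, 7.17 to 8.79%) and 36.4% of all ADA-treated peaks. Within 2 kb the counts were 314 (37.9%) against 597 (13.6%), and 46.2% of all ADA-treated peaks. Shared peaks near gene ends held a start in 67.3%. The share rose with pileup in shared and unshared peaks alike. Between a pileup of 10 and 11 a start lay in 5.96% of 218 shared and 2.91% of 2575 unshared gene-body peaks. Between 12 and 14 the shares were 31.6% of 215 and 17.7% of 594. Between 14 and 17 they were 59.6% of 141 and 38.4% of 164, and from 17 on 64.0% of 89 and 60.5% of 43, where the intervals overlapped widely. Among peaks of 600 bp or less, 17.1% of 164 shared peaks held a start against 5.06% of 1958 unshared ones, and among those over 1600 bp 30.8% of 237 against 11.6% of 467.

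**Figure D2:**
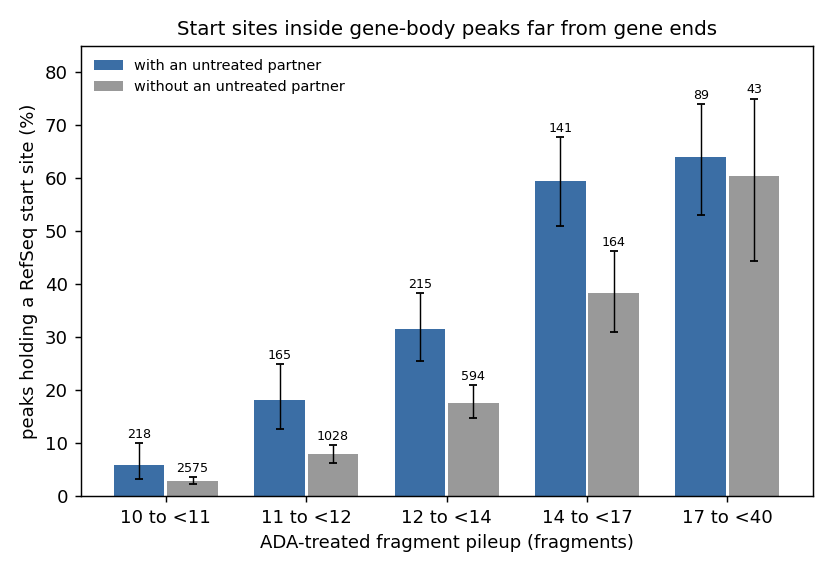
Share of gene-body peaks far from gene ends that hold a RefSeq start site (y axis, percent) by ADA-treated pileup (x axis, fragments), for peaks with an untreated partner (blue) and without (grey); bars are shares, error bars exact 95% intervals and the small numbers over the bars the count of peaks. The share climbs from 5.96% to 64.0% in shared peaks and from 2.91% to 60.5% in unshared ones.

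The gene-body peaks over a listed start differed in height from those over 2 kb from any listed start. The 252 peaks holding a start had a median pileup of 14.44 in the ADA-treated and 11 in the untreated list, and the untreated value was the higher in 21 (8.33%). The 514 peaks whose nearest listed start was over 2 kb away had medians of 11.5 and 10.7, and the untreated value was the higher in 131 (25.5%). Of these 514, only 374 had a host with a listed start. For the others the distance to the host's own start is unknown, so some may lie at a start. Outside genes, 34 of 251 peaks held a start (13.5%), all of noncoding RNA genes, with medians of 13.1 and 10.8, and the untreated value was the higher in 7.

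Many of these starts belonged to the gene that held the peak. A host listed in the promoter table was found for 678 of the 828 peaks, and 279 of these (41.2%) lay within 2 kb of one of the host's own starts. For 164 of the 279 (58.8%), no listed start lay within 2 kb of the host's 5′ boundary, since the gene table reached beyond the starts that the promoter table lists. That held for 81 of the 399 peaks farther from the host's starts (20.3%). The midpoints of the 678 peaks fell in 0 to 25%, 25 to 50%, 50 to 75% and 75 to 100% of the gene's length, from 5′ to 3′, in 182, 197, 162 and 137 cases. For the 374 peaks over 2 kb from any start the counts were 56, 95, 106 and 117, with the most in the 3′-most part. Leaving out peaks near starts lowered the first count from 182 to 56 and the last from 137 to 117. The rise toward 3′ is thus bound up with this filter, and no baseline was computed.

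**Figure D3:**
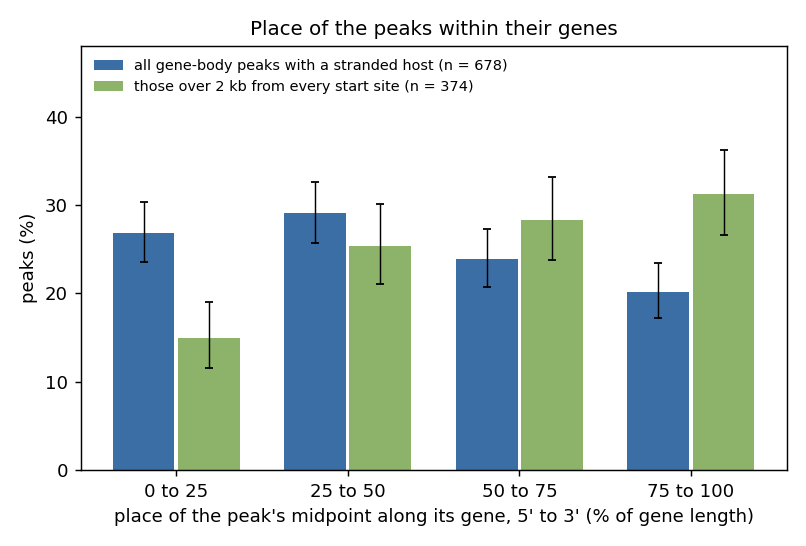
Place of the peak midpoint along its gene from 5′ to 3′ in 4 equal parts of gene length (x axis) and percent of peaks (y axis), for all 678 gene-body peaks whose host has a known strand (blue) and the 374 of them over 2 kb from every start site (green), with exact 95% intervals. The blue bars stand at 26.8%, 29.1%, 23.9% and 20.2% from the 5′-most to the 3′-most part, and the green bars rise from 15.0% to 31.3%. That rise is bound up with leaving out the peaks near starts.

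The starts under the peaks were richer in CG than other starts of the same genes. The 278 protein-coding starts inside gene-body members, from 221 genes, had a median of 29.5 CG in 300 bases, and 80.6% had 20 or more. Over all 20084 listed autosomal protein-coding starts the median was 14 and the share 37.1%. Over the 12353 of them under no peak of either library the median was 6 and the share 14.2%. Protein-coding starts under shared peaks at gene ends had a median of 29, and those under far peaks without an untreated partner had 22. The same genes had 190 other listed starts, with a median of 9 CG and 24.7% at 20 or more, and the 123 of these under no peak had a median of 6 and 8.94%. In 81 of 87 genes with starts of both kinds the start under the member had more CG, in 5 it had fewer, and in 1 they were equal, with medians of 30 and 6.5. Starts of 1 gene can overlap and share letters, as for Dnmt3a, so they are not independent. Of 368 starts inside members, 240 also lay inside an untreated peak, with a median of 30 CG, and 128 did not, with a median of 25.5. The peaks were called with the local background off, and the part of CG content in the recovery of fragments was not tested.

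**Figure D4:**
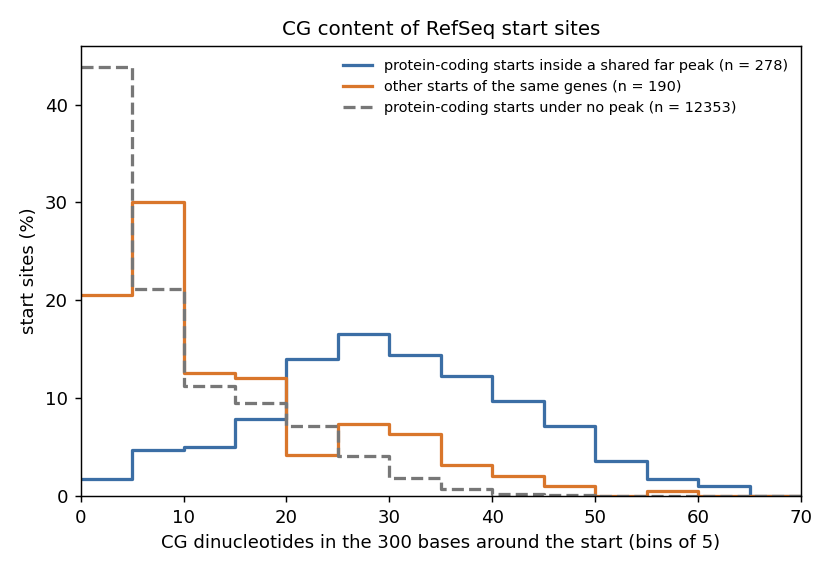
Number of CG dinucleotides in the 300 bases around a RefSeq start site (x axis, bins of 5) and percent of start sites (y axis), for 278 protein-coding starts inside gene-body shared far peaks, 190 other listed starts of the same genes and 12353 protein-coding starts under no peak. The curve of starts under the peaks is centred near 30, and the other 2 curves are highest below 10.

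The strongest gene-body peaks were led by Sfi1, which encodes a centrin-binding protein of the centrosome. Its peaks at chr11:3172308-3172896 and chr11:3179726-3180194 had ADA-treated pileups of 38.24 and 37.98 and untreated ones of 52.19 and 37.18. They were the only members with an untreated pileup above 22, and the library that was higher differed between them. Both were short, at 589 and 469 bp. Next came Usp42, a deubiquitinase, with 26.8 in the ADA-treated and 10.9 in the untreated library, and Chd9, a chromodomain helicase, with 26.1 and 11.7. Tmem267, which encodes a transmembrane protein, had 25.5 and 18.9. For Usp42 and Chd9 the ADA-treated value was more than 2 times the untreated one, and for Tmem267 it was not. The placing of reads with several matches is not stated in the labels or headers. Its part in the values at Sfi1 and Tmem267, high in both libraries, was not tested.

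Among the 10 strongest, 4 lay over a start of their gene. Larp1, whose start is printed above, had 25.3 in the ADA-treated and 10.5 in the untreated library over chr11:58008376-58010016. Dnmt3a, a de novo DNA methyltransferase, had 24.6 and 11.3, and Cdyl had 24.6 and 10.2. Smco4 had 23.9 and 10.6. Ywhaz, which encodes 14-3-3 zeta and stood on the housekeeping list, had 24.1 and 11.7. The ranking was by ADA-treated pileup alone, and the untreated pileups of these 5 genes lay between 10.16 and 11.7, near the list's floor of 10.

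Among gene-body members, those with the largest excess in the untreated library after Sfi1 were in Zfp978, Abcg1, Zcchc24 and Man1c1. Zfp978, a zinc-finger gene, had 13.1 in the ADA-treated and 17.5 in the untreated library. Abcg1, a cholesterol exporter, had 10 and 13.5, Zcchc24 had 10.4 and 13.8, and Man1c1, a Golgi mannosidase, had 10.6 and 13.3. In each of these the partner covered under 50% of the ADA-treated peak. Sys1, a Golgi trafficking protein, had 13.2 and 14.8 over its start.

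The 5 longest gene-body members were in Nfic, Plec, Kdm6b, Gse1 and Igf2. Nfic, a transcription factor of the NFI family, carried 10209 bp with pileups of 15.0 and 12.2, and Plec, the cytoskeletal linker plectin, 8576 bp with 12.2 and 11.3. Kdm6b, a demethylase of H3K27, carried 7519 bp with 14.1 and 11.3. Gse1 carried 6538 bp with 12.2 and 11.2, and the imprinted growth factor gene Igf2 6500 bp with 12.8 and 10.5. The untreated partners covered 2.15% of the member in Nfic, 11.1% in Plec, 15.5% in Kdm6b, 24.4% in Gse1 and 7.88% in Igf2. Over these 5 genes the 2 libraries shared only a small stretch of each peak.

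Among gene-body members, the farthest from a gene end were in Tenm3, a teneurin adhesion protein, 617166 bp from the nearest end, and in Celf2, an RNA-binding splicing regulator, 332238 bp away. Fgf12, an intracellular fibroblast growth factor, Nav2, a neuron navigator, and Asic2, an acid-sensing channel, followed at 288469, 286724 and 271703 bp. The peaks in Celf2, Nav2 and Asic2 held a start of their gene, the one in Fgf12 lay 177 bp from one, and the one in Tenm3 lay 168141 bp away. Pileups in the ADA-treated library were 11.6 to 15.1 over the 5 peaks and 10.3 to 13.1 in the untreated one.

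The 828 gene-body peaks overlapped 687 protein-coding genes, 4.08% of the 16856 autosomal ones longer than 4 kb, which have room for such a peak. Each peak in more than 1 gene was counted once, for the longer gene, which left 681 hosts. Of these, 582 held 1 peak, 69 held 2 and 30 held 3 or more. Gse1 held 10 peaks over 25511 bp in all, with pileups of 10.47 to 14.73 in the ADA-treated and 10 to 14.03 in the untreated library. Zfp469 held 5. Arhgap23, Cic, Macrod1, Plec, Rara and Triobp held 4 each. Cic, a transcriptional repressor, had the highest peak among these, with 22.4 against 11.96 over a start, and its other peaks had 11.4 to 12.6. Rara, the retinoic acid receptor alpha, ranged from 10.2 to 16.3 in the ADA-treated and 10 to 12.3 in the untreated library.

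Long genes were hosts more often. The median length of the 687 genes was 46.4 kb, against 24.3 kb for all genes with room, and the share with a member was 0.876% between 4 and 10 kb, 3.53% between 10 and 30 kb, 5.41% between 30 and 100 kb, 7.70% between 100 and 300 kb and 7.33% above. An ADA-treated peak also lay within 2 kb of an end for 455 hosts (66.2%, interval 62.6 to 69.8%), against 54.0% of all genes with room. An untreated peak did so for 289 (42.1%, 38.3 to 45.9%), against 26.3%. For 207 hosts (30.1%) neither list had a peak at an annotated end. The same share over all genes with room was not computed, so this is no trait of the hosts. A peak away from the annotated ends can still lie over a start.

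Of 14 lists of protein-coding genes, regulators of development and of chromatin held members most often, at 14 of 81 genes with room (17.3%, interval 9.78 to 27.3%) and 9 of 53 (16.98%, 8.07 to 29.8%), against 4.08% of all genes with room. The median length of the genes with room was 30.9 kb in the developmental list and 88.5 kb in the chromatin list, and length was not adjusted for. The lists were drawn up with earlier results of these data known, and these are counts with no test. Developmental hosts included Irx2, an Iroquois homeobox gene of the nephron, with 17.9 in the ADA-treated and 11.4 in the untreated library. Lhx2, a LIM homeobox gene, had 17 and 11.3, and both peaks held a start. Zfhx3, a large homeobox gene, had its stronger peak at 16.3 and 11.2, 9533 bp from a start. Other developmental hosts included Ebf3, Foxp1, Lmx1b, Pax2, Pax6, Prdm16, Runx1, Runx2, Tbx2 and Tfap2c, and the list's 17 peaks had median pileups of 12.3 and 11.2.

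Chromatin hosts were writers, erasers and corepressors. Beside Dnmt3a they included the deacetylases Hdac7, with 20.9 in the ADA-treated and 10.9 in the untreated library, and Hdac4, with 17.9 and 11.1, both over a start. The demethylases Kdm2b, Kdm4b and Kdm6b, the methyltransferase Kmt2d and the corepressor Rere were also hosts. The list's 17 peaks had medians of 11.7 and 10.7. In every list the median was higher in the ADA-treated library or the list held no member.

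The signalling list held members in 7 of 60 genes (11.7%, interval 4.82 to 22.6%). Axin2 and Axin1, scaffolds of the complex that degrades beta-catenin, had 17.7 and 17.4 in the ADA-treated and 11.2 and 10.7 in the untreated library, and the peak in Axin2 held a start of that gene. Wnt9b, the ligand that induces nephrons, had 14.01 and 10 over a start. The others were the receptors Fgfr3 and Ptch1 and the ligands Jag2 and Wnt7b. Small GTPase and phosphoinositide genes held members in 5 of 45 (11.1%), among them Asap1, an ARF GTPase-activating protein, with 19.97 and 11.1. Agap1, another ARF GTPase-activating protein, had 16.3 and 12.3. In both lists each gene given with its values was higher in the ADA-treated library.

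**Figure D5:**
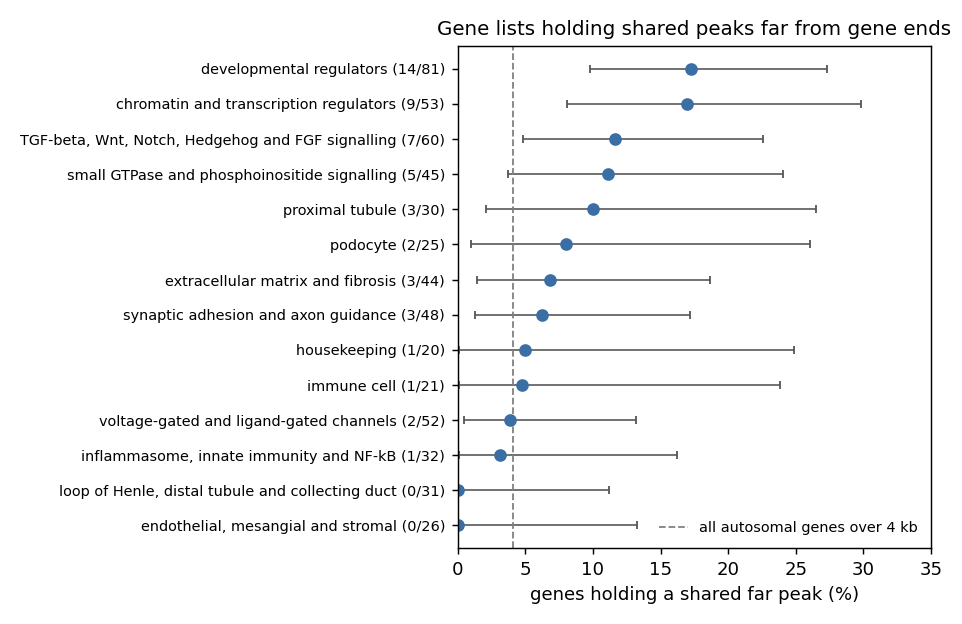
Share of the genes longer than 4 kb in each list that hold a shared peak far from gene ends (x axis, percent; points with exact 95% intervals), with the number of genes in brackets and a dashed line at 4.08%, the share over all 16856 such autosomal genes. Developmental and chromatin regulators lie at 17.3% and 16.98%, and 2 kidney cell lists lie at 0.

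The 4 lists of kidney cell markers together held members in 5 of 111 genes with room (4.50%, interval 1.48 to 10.2%), near the 4.08% of all genes with room. The proximal tubule list held members in 3 of 30 genes (10%, interval 2.11 to 26.5%). Slc4a4 had 16.2 in the ADA-treated and 10.1 in the untreated library over the CG-rich start printed above. Its other listed start, downstream and with 3 CG, lay under no peak. Which of these starts the proximal tubule uses was not tested. Ggt1, the gamma-glutamyl transferase of the brush border, had 11.5 and 10.8 over a start, and Ass1, argininosuccinate synthase, had 10.2 and 10.3. The podocyte list held members in 2 of 25. Magi2, a scaffold of the slit diaphragm, had peaks of 13.71 and 11.04 in the ADA-treated and 10.73 and 10.28 in the untreated library, and Lmx1b, a podocyte transcription factor that is also on the developmental list, had 11.2 and 11.4. None of 26 endothelial, mesangial and stromal genes and none of 31 genes of the loop, distal tubule and collecting duct held one, which allows shares of up to 13.2% and 11.2% by the exact interval. Peaks of a repressive mark do not show which cells the kidney samples held.

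The other lists lay near the share of all genes with room. Extracellular matrix genes were hosts in 3 of 44, with Ltbp4, a TGF-beta binding protein, at 13.07 and 13.04 in the ADA-treated and 10.61 in the untreated library for 2 peaks, Hspg2, perlecan, and Agrn, agrin. Synaptic genes were hosts in 3 of 48, with Nrxn2, a neurexin, at 17.6 in the ADA-treated and 10 in the untreated library, Ephb2 and Ntn1. Channels were hosts in 2 of 52, which were Cacna1a, at 13.6 and 10.2, and Grik4, at 10.87 and 11.97. Inflammasome and NF-kB genes were hosts in 1 of 32 (Nfkb2, 13.7 and 10.5), immune cell genes in 1 of 21 (Runx3, with 3 peaks) and housekeeping genes in 1 of 20 (Ywhaz). Grik4 was higher in the untreated library and the other genes given with both values in this paragraph were higher in the ADA-treated one.

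Outside genes, 97 of the 251 members (38.6%, interval 32.6 to 45.0%) lay within 2 kb of an end of a noncoding gene or pseudogene, against 531 of 2245 far intergenic peaks without untreated partner (23.7%, 21.9 to 25.5%) and 17.4% of all ADA-treated peaks. The neighbour was a long noncoding RNA gene for 78 (31.1%), a pseudogene for 10, a microRNA gene for 10 (3.98%, 1.93 to 7.20%) and a tRNA gene for 4. MicroRNA genes lay that near to 13 of the 2245 peaks without partner (0.579%, 0.309 to 0.988%), and to 1.47% of all ADA-treated peaks. The outside members were also longer, with a median of 916 bp against 567 bp for those without partner, and the part of length was not tested. The 38 starts of long noncoding RNAs under outside members had a median of 21 CG, against 4 for all 11311 such listed autosomal starts.

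The peak upstream of the miR-17 cluster, at chr14:115040151-115042498, had 19.7 in the ADA-treated and 11.2 in the untreated library. It ended 1173 bp before the Mir17 hairpin. The listed start of Mir17hg, the host transcript, lay 1892 bp from the peak. This distance has no direction, so whether a transcript from that start would hold the hairpins is not shown. The peak over the printed Mir9-3hg start, which lies downstream of the Mir9-3 hairpin, was at chr7:79515388-79516002 and had 16.7 and 10.9. Another peak, at chr3:88214432-88216310, covered Mir9-1, a second source of miR-9-5p, and had 15.1 and 11.4. miR-9 is known for its part in the developing brain. The ADA-treated value was the higher at all 3.

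Further microRNA neighbours were picked out after their values were seen, for being well-known microRNAs. Mir210, whose product responds to hypoxia, lay under a peak of 15.3 in the ADA-treated and 10 in the untreated library. Mir193a lay within 2 kb of a peak of 15.2 and 11.4, Mir22 within 2 kb of one of 13.9 and 10.4, and Mirlet7i within 2 kb of one of 12.8 and 11.4. Dleu2, the host transcript of miR-15a and miR-16, had a peak of 16.5 and 10.2 over a start, at chr14:61681419-61683106. Of 40 listed autosomal noncoding genes, 6 had a member over them or within 2 kb (15%, interval 5.71 to 29.8%), against 1.18% of all 26377 autosomal noncoding genes and pseudogenes and 1.95% of the 12408 long noncoding RNA genes. The list was drawn up with earlier results known. The 6 were Dleu2, Miat, Mir17hg, Mir22hg, Mir9-3hg and Neat1.

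The strongest members outside genes were not all beside a named transcript. The strongest, at chr12:20232820-20234445, had 23.3 in the ADA-treated and 19.1 in the untreated library. It was high in both, and the part of reads with several matches was not tested. A peak at chr5:33694535-33695967, 22332 bp from Tacc3, had 19.8 and 11.1, and a peak at chr15:85669930-85672091, 62819 bp from Ppara, had 19.7 and 13.1. At chr6:3181356-3183523 the untreated value was the higher, with 19.6 and 21.3. A peak within 2 kb of a cluster of tRNA genes, at chr1:171073797-171074655, had 15.6 and 11.9. The longest outside genes, at chr1:88282928-88292498, was 9571 bp with 15.8 and 17.8, and 99.5% of it lay under an untreated peak of 81071 bp.

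The largest untreated excess outside genes was at chr17:13206849-13207402, with 10.4 and 14.2, and then at chr14:43360996-43362063, with 10.02 and 13.1. The member farthest from a gene end outside genes, at chr8:73352826-73353767, lay 588928 bp away and had 16.2 and 11.2.

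Part of the outside members lay in runs. Chains of 3 or more with gaps of up to 100 kb held 53 of the 251 members (21.1%) in 13 runs. Runs were not computed for outside peaks without partner, so there is no baseline for this share. The longest runs had 6 peaks each, at chr13:12830229-12939809 near the prolactin family genes Prl2c2 and Prl2c3, with 10.37 to 13.15 in the ADA-treated and 10.03 to 11.96 in the untreated library, and at chr4:121987101-122036202, with 10.5 to 16.3 and 11.7 to 12.2. Another run of 5 lay among the zinc-finger genes Zfp978, Zfp982 and Zfp985. The untreated pileup was the higher in 23 of the 53 members in runs (43.4%) and in 56 of the other 198 (28.3%). Neighbouring copies of such gene families are alike in sequence, the placing of reads with several matches is not stated in the labels or headers, and values there are uncertain.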

How the data were processed

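H3K27me3 ChIP-seq peaks of 1 ADA-treated and 1 untreated library, grouped by the treatment label, were used. The authors called broad peaks with MACS 2.1.2 for each library against its own input at a p threshold of 0.001, with the local background off, per the file headers. Each library had an input of its own in the headers, whereas the labels list 1 input. The deposited signal is the fragment pileup averaged over a peak, the deposited fold is relative to one background of 3.24 fragments, and the −log10 p-value and −log10 q-value are the authors' caller's own. Libraries held 20602041 (ADA-treated) and 18849785 (untreated) ChIP fragments, and the smallest pileup was 10 in both, so a region with no peak is not shown to lack the mark. The submitters' processing notes name CASAVA 1.4 and mm9, but coordinates match GRCm38 genes and are given as GRCm38, 1-based. No aligner is named (not given in the sources used here).

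Overlap, distance and counts were computed with Python 3.11.15, pandas 2.3.3, numpy 2.4.6 and scipy 1.17.1, and the 1079 overlaps were checked with bedtools 2.31.1. On simulated data, 2000 of 2000 planted peaks were put in their class. Start sites, CG counts and microRNAs come from RefSeq tables of GRCm38.p6. No genome sequence was used, so exons, introns and the base composition of the peaks are not described. The members and lists were chosen with earlier results of these data known. Named genes were the members with the largest pileups, untreated excess, length or distance, hosts of 2 or more members, up to 3 members per list, the strongest outside members at noncoding genes, and the peaks at each limit. A few genes that this rule selects are not reported here. With 1 library per group no test was run. Alternatives for the thresholds, the overlap and the distance are given in the closing section. Figures were drawn with matplotlib 3.10.9.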

Additional observations from a re-analysis of the deposited data

How the results depend on the processing

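The number of members (1079), the share outside genes (23.3%), the median ADA-treated pileup (12.02), the median untreated pileup (10.77) and the median length (1061 bp) were recomputed under 14 other settings, and 32 of the 70 values moved. In every setting run, the median ADA-treated pileup stayed above the untreated one. All settings used the same 2 libraries. The q limit on the ADA-treated list and its shortening raise its median by design, so this is no check of the difference. Values below are given as number, share outside genes, ADA-treated pileup, untreated pileup and length. With a −log10 p of at least 5 in both lists they were 47, 27.7%, 15.6, 13.6 and 1398 bp. With a pileup of at least 12 in both they were 104, 18.3%, 14.6, 12.8 and 1304 bp, and with the ADA-treated list shortened to the length of the untreated one 575, 18.96%, 13.84, 10.98 and 1178 bp. An ADA-treated q of at most 5% moved the pileups to 13.1 and 10.9 and the length to 1135.5 bp. Overlap of 50% of the shorter peak moved the ADA-treated pileup to 12.2, and of both peaks moved the number to 430 and that pileup to 12.6. The share outside genes was 20.7% beyond 1 kb, 27.3% beyond 5 kb and 30.2% beyond 10 kb, where 540 members were left. Distance from the ends of every annotated gene gave 18.2% and a pileup of 11.8. Distance from listed start sites as well as gene ends, chosen after seeing the data, gave 714 members, 28.0%, 11.5, 10.7 and 1000.5 bp. Fewer peaks entered under the stricter settings, and the cause of the other shifts was not tested. Most untreated values lay just above the smallest pileup listed, and the part of depth was not tested. No paired analysis was possible because each group has 1 library and replicate numbers were given in accession order only.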

Other observations

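The members were unevenly spread over the chromosomes. Chromosome 11 held 130, or 1.07 per Mb, chromosome 4 held 132 (0.844 per Mb) and chromosome 15 held 78 (0.751 per Mb). Chromosome 3 held 18 (0.113 per Mb) and chromosome 16 held 14 (0.143 per Mb). The share of far ADA-treated peaks with an untreated partner varied less, from 9.72% on chromosome 16 to 16.8% on chromosome 10.

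The imprinted locus Gnas, which encodes the stimulatory G protein alpha subunit, held 2 members, both over a listed start. The peak at chr2:174329478-174330885 had 21.3 in the ADA-treated and 14.7 in the untreated library, and the peak at chr2:174327290-174327758 had 10.6 and 10.7.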
